A study of Homo sapiens with 2 samples.

Results

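The genes described here encode aminoacyl-tRNA synthetases, and they were chosen by name from a list of 36 symbols. All 36 were found among the 47352 gene names of the deposited table, 16 for mitochondrial enzymes (symbols ending in 2) and 20 for cytosolic enzymes. Where a name had several transcript listings, as 12 of them did, the listing with the most windows was used. The cells were GM12878, an established human line of B lymphoblasts immortalised by Epstein-Barr virus, grown in RPMI with 15% FBS and no named treatment. RNA fragments recovered with an antibody against N6-methyladenosine (m6A, the IP) were sequenced beside unselected fragments of the RNA (the input). There was 1 IP library and 1 input library, so no difference between them has a replicate check and no p-value is given.

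Aminoacyl-tRNA synthetases join each amino acid to its tRNA and so set the genetic code at the step before the ribosome. Cells keep a set for the cytosol and another, also encoded in the nucleus and imported, for mitochondrial protein synthesis. Several of the cytosolic enzymes sit together in the multisynthetase complex, and GARS and KARS are genes that give rise to both the cytosolic and the mitochondrial enzyme. m6A is the most common internal modification of mRNA, is known to be dense near stop codons and in long exons, and is bound by YTH proteins that affect decay and translation of the message.

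On 1 listing per gene the coverage corresponded to 58.5 M IP reads and 51.7 M input reads. All 7 B cell marker genes were measured in the input, with a median scaled coverage of 31.8, whereas 0 of 6 pluripotency genes were, with a median of 0.0140. These were set side by side because the source label speaks of embryonic stem cells from mouse, and the organism and cell line labels of human GM12878. Of the other markers, 2 of 5 T cell genes, 1 of 4 myeloid genes and 0 of 3 fibroblast genes were measured. The T cell genes had a median of 0.0457, but the highest of them, TRAC, stood at 26.4, near the B cell median. A gene counted as measured where its listing had 2 windows or more and scaled input coverage averaged 1 or above, which held for 10756 genes.

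A level below is the mean scaled coverage over the windows of a listing. Windows of 100 nt start every 50 nt along each exon. The last window of an exon is often nearly empty, as in exon 1 of EPRS, with an input of 18.8 in window 7 and 0.098 in window 8. A mean over windows is lowered more by this in listings of many short exons, so levels of different genes are compared only roughly. The window score is the log2 ratio of IP to input, each first divided by its median over the gene, with 1 added to every term. Windows scoring at least 2, a 4-fold ratio, were called enriched, and a region is a run of at least 2 such windows. The gene-level score is the highest mean over 2 consecutive windows, and the peak of a region or gene is its window of highest score, which need not have the highest IP. All intervals are 95% intervals that cover counting error only.

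Enriched regions were found in 9 of 16 mitochondrial enzymes (AARS2, EARS2, FARS2, HARS2, LARS2, MARS2, PARS2, TARS2 and WARS2) and in 7 of 20 cytosolic enzymes (AARS, CARS, GARS, HARS, LARS, SARS and YARS). Together these were 16 of 36 genes, or 44.4% (exact interval 27.9 to 61.9), against 44.2% of all measured genes, so the family as a whole stood at the background. At a score of 3 it was 12 of 36 against 26% of measured genes, and with runs of at least 4 windows 15 of 36 against 31%. All 36 genes passed the input minimum. The share was 56.25% in mitochondrial enzymes (29.9 to 80.2) and 35.0% in cytosolic enzymes (15.4 to 59.2). Among measured genes within the same ranges of input level and window number, 55.9% had a region for the mitochondrial ranges and 55% for the cytosolic ranges. Both intervals hold these values, and the difference between the classes was not tested.

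Enriched windows made up 96 of 1021 windows in mitochondrial enzymes, or 9.40% (7.68 to 11.4), and 38 of 1400 in cytosolic enzymes, or 2.71% (1.93 to 3.71). The share was 5.75% in all measured genes. At a score of 3 it was 5.09% in mitochondrial and 1% in cytosolic enzymes, against 2.38% in all measured genes. These intervals treat windows as independent, but neighbouring windows overlap and share reads, so the intervals are too narrow. A few genes also carried much of the counts at a score of 2. MARS2 held 18, AARS2 16 and LARS2 15 of the 96 windows in mitochondrial enzymes. SARS, on a listing of 2 exons, held 10 of the 38 in cytosolic enzymes. The median gene-level score was 3.39 in mitochondrial enzymes (lowest 0.81, highest 5.62) and 1.70 in cytosolic enzymes (0.68 to 4.57), beside 1.81 in all measured genes. Of the mitochondrial enzymes 11 of 16 lay above that median, and of the cytosolic enzymes 8 of 20.

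**Figure D1:**
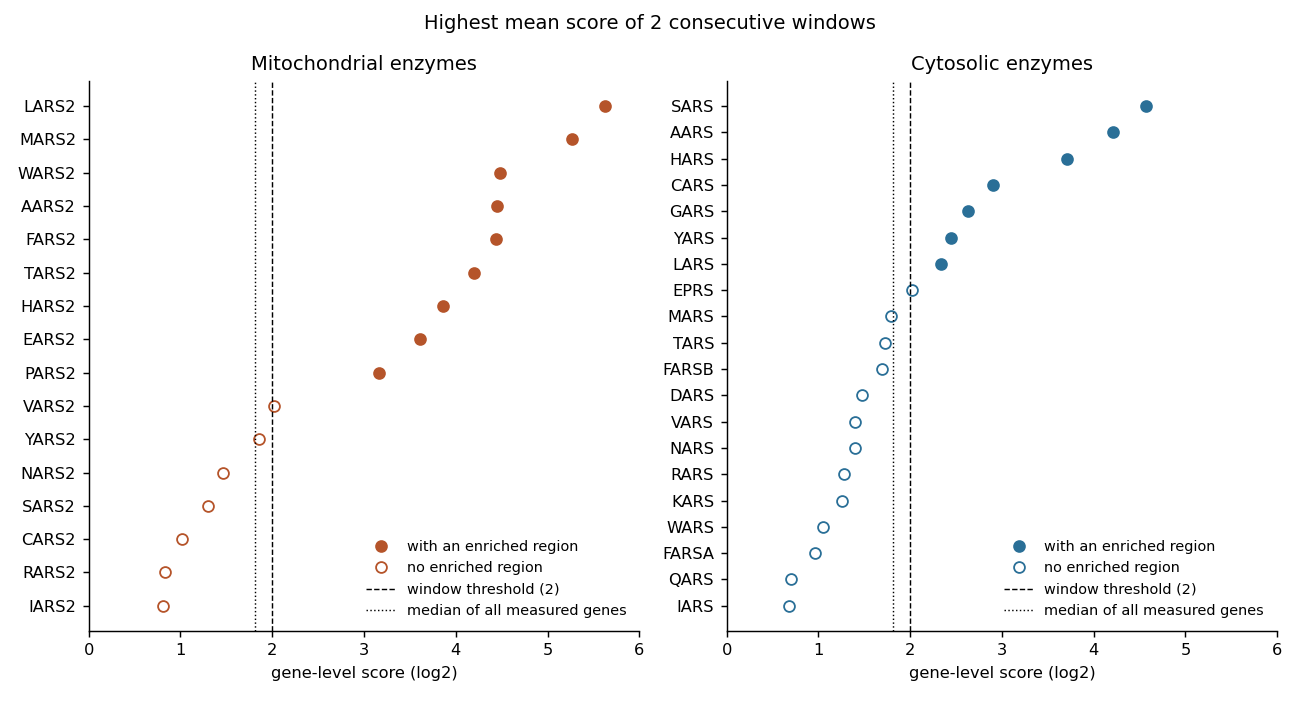
Gene-level score (log2) of each mitochondrial enzyme (left) and cytosolic enzyme (right), with filled points for genes that have an enriched region. Mitochondrial enzymes with a region lie at 3.17 or higher and those without at 2.02 or lower, while cytosolic enzymes run from 0.68 to 4.57.

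The transcripts of the mitochondrial enzymes were the less abundant ones in the input. Their median level was 2.56 (lowest 1.18, highest 6.02), against 10.8 for cytosolic enzymes (1.74 to 27.8) and 3.75 over all measured genes. With the median over windows as the level of a gene, it was 2.25 for mitochondrial and 8.11 for cytosolic enzymes. In the IP the classes lay closer, with a median level of 7.45 (1.5 to 52.4) for mitochondrial and 8.88 (4.03 to 38.5) for cytosolic enzymes. Over whole listings the log2 ratio of IP level to input level, with 1 added to each and no gene median, was 1.17 for the mitochondrial median and -0.05 for the cytosolic median. Each library was scaled by an unknown factor, so these ratios are read only beside the median of all measured genes, 0.35.

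In the input, the cytosolic enzymes with the highest levels were WARS and KARS. WARS, the tryptophanyl-tRNA synthetase, which interferon gamma is known to induce, stood at 25.7 in the IP and 27.8 in the input (input interval 27.3 to 28.2). KARS, the lysyl-tRNA synthetase, stood at 19.3 in the IP and 22 in the input (21.5 to 22.4). QARS, for glutamine, followed at 21.4 (20.9 to 21.8), which overlaps the interval of KARS. GARS at 16.4 (16 to 16.8) and YARS at 16.2 (15.9 to 16.6), the next pair in the order, also overlapped.

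The lowest cytosolic levels were those of SARS and CARS, with CARS not apart from LARS at 4.02 (3.89 to 4.16). CARS, the cysteinyl-tRNA synthetase, had 4.34 in the IP and 3.90 in the input (3.73 to 4.07). SARS, the seryl-tRNA synthetase, had 6.70 in the IP and 1.74 in the input, but its level depends on the listing. Its longest listing has 64 windows in 2 exons, of which exon 2 holds 59. The other SARS listing has 45 windows in 11 exons and a level of 20.8 in the IP and 12.2 in the input. With that listing the highest window pair scored 2.10, only 1 window reached the threshold, and no region was called.

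Among mitochondrial enzymes IARS2 and CARS2 had the highest input levels and PARS2 and AARS2 the lowest. IARS2, for isoleucine, had 3.66 in the IP and 6.02 in the input (5.83 to 6.21), and CARS2, for cysteine, 3.85 and 5.74 (5.5 to 5.99). Their log2 ratios over the whole listing, -0.59 and -0.48, lay below the median of 0.35 over all measured genes, and neither had a region. PARS2, for proline, had 12.5 in the IP and 1.18 in the input (1.07 to 1.29), the lowest input of all 36 genes. AARS2, for alanine, had 7.84 in the IP and 1.83 in the input (1.74 to 1.92), which overlaps the interval of WARS2 at 1.85 (1.73 to 1.98).

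**Figure D2:**
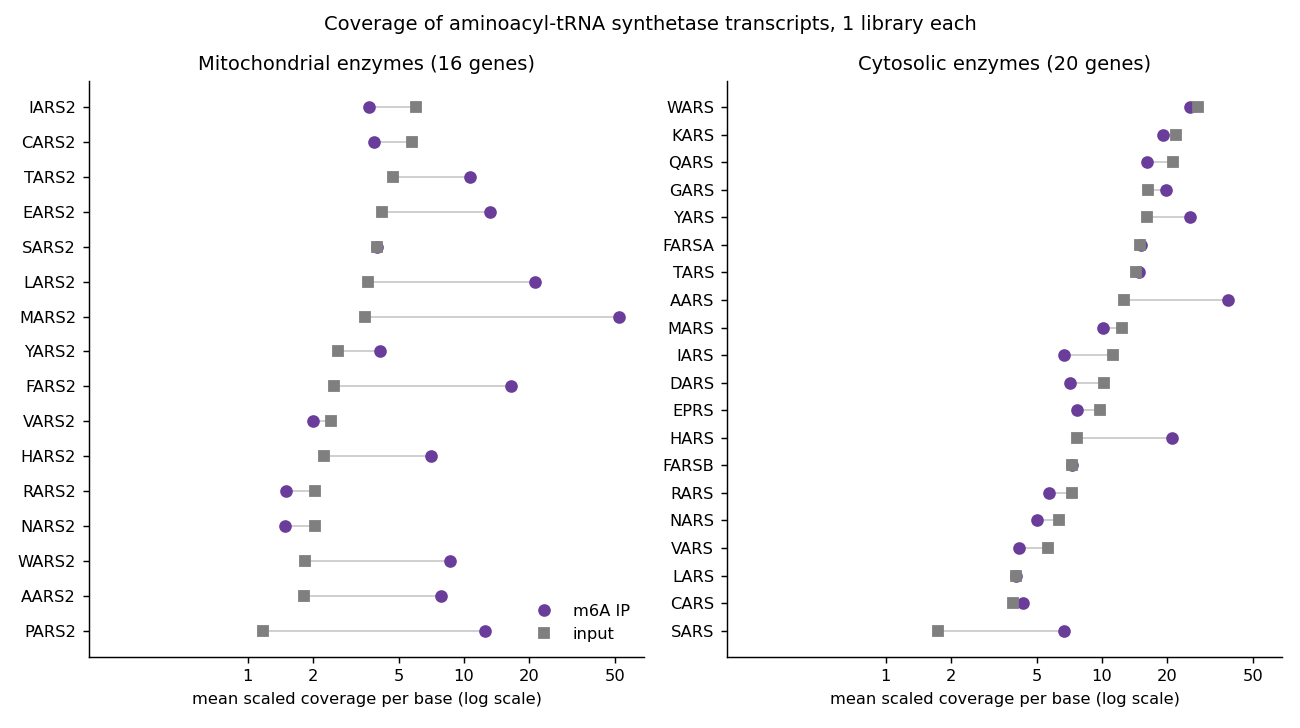
Mean scaled coverage (log scale) of each gene in the m6A IP (circles) and the input (squares), with mitochondrial enzymes on the left and cytosolic enzymes on the right, sorted by input. The highest ratios of IP to input are those of MARS2, PARS2 and FARS2, and the lowest those of IARS, IARS2 and CARS2. Several other genes of both classes also lie below their input, in units that each library scales by its own unknown factor.

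LARS2, the mitochondrial leucyl-tRNA synthetase, had the highest gene-level score, 5.62, above 98.9% of measured genes. Its region covered windows 3 to 17 of the 30 windows of exon 22, the 3' terminal exon. From window 7 to 11 of that exon the IP stood at 160, 307, 268, 226 and 156, against 5.47, 9.47, 7.37, 3.63 and 2.82 in the input. The IP was highest in window 8, where the input was also the highest of these 5. At the window of highest score the ratio of IP to input was 62.3 (48.0 to 82.0), from 2335 IP and 59 input reads.

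MARS2, the mitochondrial methionyl-tRNA synthetase, is listed as a single exon of 62 windows, and its region of 17 windows was the longest of the family. The region had several summits. At window 26 the IP was 306 and the input 3.43, at window 37 the IP was 438 and the input 3.52, and between them, at window 32, the values were 34.2 and 1.17. In windows 5 to 12, outside the region, the IP ran from 2.70 to 6.57 and the input from 2.79 to 7.40. The gene-level score was 5.26, and without division by the gene medians it was 6.45, above that of LARS2 at 5.49.

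WARS2, AARS2 and FARS2 had like scores, of 4.48, 4.45 and 4.44. WARS2, for tryptophan, had a region of 5 windows in its 3' terminal exon of 44 windows, with 102 in the IP and 3.30 in the input at the peak. AARS2 had a region of 9 windows, with a peak of 128 in the IP and 4.86 in the input, and a weaker region of 7 windows, with 23.4 in the IP and 2.52 in the input. FARS2, the mitochondrial phenylalanyl-tRNA synthetase, carried the only region of the family in an internal exon. That exon, number 2 of 7, has 13 windows, and windows 8 and 9 held 172 and 178 in the IP against 6.40 and 6.68 in the input. The ratio at its peak was 26.9 (22 to 33.1).

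TARS2, for threonine, had its region in a short 3' terminal exon of 8 windows, with 7 of the 8 enriched. Windows 6 and 7 held 128 and 116 in the IP against 7.78 and 6.30 in the input, and the gene-level score was 4.20. EARS2, for glutamate, had 2 regions in a 3' terminal exon of 49 windows, the stronger with 82.2 in the IP and 4.97 in the input. Its gene-level score was 3.61.

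PARS2 had 3 regions in its 3' terminal exon of 46 windows, with IP peaks of 61.2, 43.8 and 48.6 against inputs of 2.08, 1.23 and 1.18. The gene's IP median was 4.37 and its input median 1.20, and this gene-wide excess is divided out of the window score. The gene-level score was 3.17 with that division and 4.45 without it. Only 19 input reads lay under its highest window, where the ratio was 41.2 (26.3 to 69.4).

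**Figure D3:**
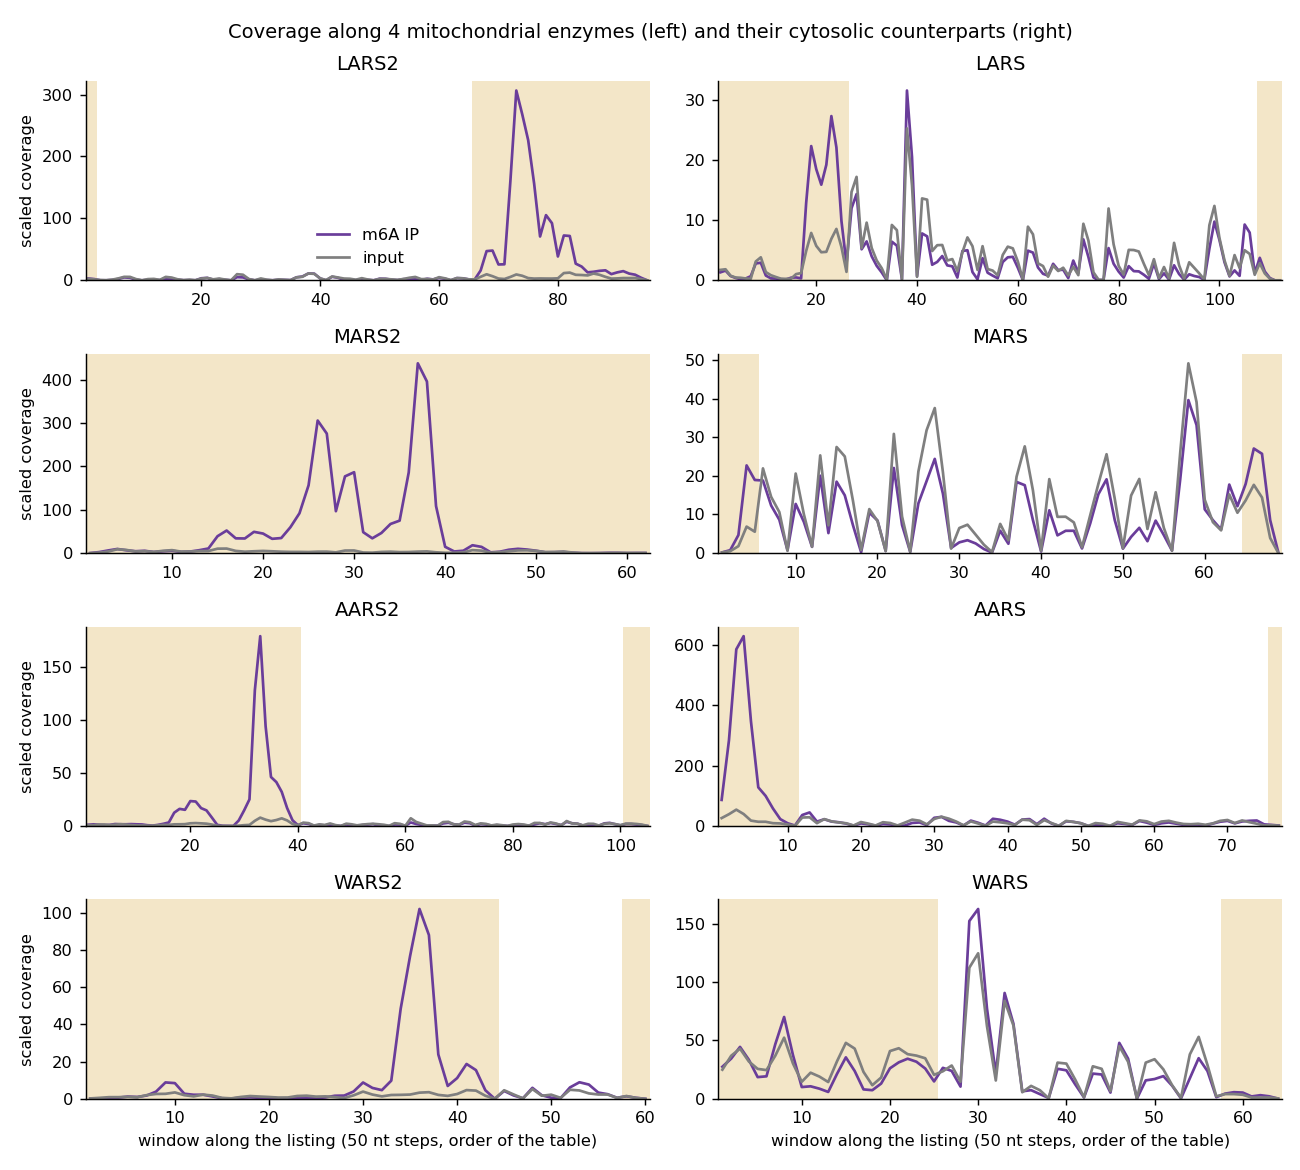
Scaled coverage of the m6A IP (purple) and input (grey) along the listings of LARS2, MARS2, AARS2 and WARS2 on the left and of LARS, MARS, AARS and WARS on the right, with terminal or single exons shaded. The IP peaks of the mitochondrial enzymes and of AARS rise far above the input within shaded exons, while in WARS and in most of MARS the lines peak at the same windows.

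Of the cytosolic enzymes, AARS and HARS had the highest scores apart from SARS. AARS, the alanyl-tRNA synthetase, scored 4.22, with 347 in the IP and 17.7 in the input at the peak of a region of 7 windows. The ratio there was 19.6 (17.3 to 22.1), from 3578 IP and 288 input reads, the best-covered input peak among genes scoring above 3. HARS, the histidyl-tRNA synthetase and target of Jo-1 autoantibodies, scored 3.71, with 189 in the IP and 8.75 in the input. Both regions lay in the 3' terminal exon, over windows 2 to 8 of 11 in AARS and 4 to 9 of 9 in HARS. CARS scored 2.90, with 35.8 in the IP and 5.41 in the input, again in the 3' terminal exon.

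GARS, YARS and LARS came close above the threshold. GARS, the glycyl-tRNA synthetase, scored 2.63 in a region of 4 windows with 101 in the IP and 20.7 in the input at its peak. YARS, the tyrosyl-tRNA synthetase, scored 2.45 in 2 windows, where the IP was 167 and 168 and the input 41.1 and 36.3. LARS, for leucine, scored 2.33 in 4 windows, with 27.3 in the IP and 6.91 in the input. Without division by the gene medians LARS stood below the threshold, at 1.83, and with 5 in place of 1 added it stood at 1.6. YARS also lost its region without that division, with 1 window left at the threshold. The count was then 14 of 36 genes (9 mitochondrial and 5 cytosolic), against 45.5% of measured genes. The region of SARS, on the 2-exon listing, scored 4.57, with 34.7 in the IP and 0.298 in the input at its highest window. That input equals 5 reads, and the interval of the ratio, 47.8 to 349, is the widest of the family.

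Members of the multisynthetase complex had a region in 1 of 8 cases, LARS, and the cytosolic enzymes outside the complex in 6 of 12, against 44.2% of all measured genes. The exact intervals, 0.316% to 52.7% for the complex and 21.1% to 78.9% for the others, overlap, and both hold that share. It is not matched for exon length. In the complex EPRS, KARS, MARS, QARS and RARS had no exon of 10 windows or more, and outside it CARS, FARSA and VARS had none. Among measured genes of that kind 7.3% had a region. The median gene-level score was 1.37 in the complex and 2.08 outside it, beside 1.81 in all measured genes. Median input levels were 10.8 in the complex and 10.2 outside it. Of the 8 complex members, 0 had a log2 ratio over the whole listing above the median of all measured genes. EPRS, which charges both glutamate and proline, scored 2.02, MARS 1.79, DARS 1.47, RARS 1.27, KARS 1.26, QARS 0.70 and IARS 0.68.

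The genes nearest to the threshold without a region were VARS2, EPRS and YARS2. VARS2, for valine, and EPRS each had 1 enriched window, at 2.13 and 2.06, beside a neighbour below 2. The highest window of YARS2, for tyrosine, had 10.1 in the IP and 1.91 in the input and scored 1.91. Among genes with a region, LARS and YARS had the gene-level scores nearest to the threshold. With 0.1 added before the logarithm in place of 1, which lowers scores less at low input, EPRS and VARS2 also had a region. The count was then 18 of 36 genes, against 51.8% of measured genes.

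Where enriched regions lay could be read in the direction of transcription for part of the family. Exons are numbered along the chromosome and not along the transcript. Among measured genes with more than 1 exon, the last-numbered exon was the longer terminal exon in 91.1% of 3747 genes on the plus strand, and exon 1 was the longer in 90.5% of 3520 on the minus strand. The strand, taken from a RefSeq table, was at hand for 26 of the 36 genes. It was not at hand for AARS2, VARS2, DARS, GARS, LARS, MARS, QARS, SARS, VARS and YARS.

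The 36 genes held 21 regions. Of these, 13 regions in 9 genes lay in the 3' terminal exon (AARS, CARS, EARS2, HARS, HARS2, LARS2, PARS2, TARS2 and WARS2), 1 in the internal exon of FARS2 and 1 in the single exon of MARS2. The other 6, in AARS2, GARS, LARS, SARS and YARS, lay in a terminal exon of a gene whose strand was not at hand. No region lay in an exon known to be 5' terminal. In all measured genes of at least 2 exons with a strand, 68.3% of region peaks lay in the 3' terminal exon, which held 46.1% of windows, 25.7% in internal exons and 5.96% in the 5' terminal exon.

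Within terminal exons the peaks stood back from the edge that adjoins the rest of the transcript. The distance from that edge to the start of the peak window was between 150 and 1450 nt over 19 regions, with a median of 400 nt, and 14 of the 19 lay at 500 nt or less. HARS, GARS and LARS lay at 150 nt, and the most distant region of PARS2 at 1450 nt. These distances were not computed for the regions of all measured genes, so they are not read as particular to this family.

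Short internal exons, the bulk of these genes, held no enriched window. The 527 internal exons with 5 windows or fewer had 0 enriched among 1498 windows, which allows a share of up to 0.200% (3 counts of that total). The highest score there was 1.72, in CARS. Some of these windows were nearly empty, such as window 5 of exon 18 in EPRS, with 0.032 in the IP and 0.010 in the input. With 1 added to every term such windows could hardly reach a score of 2, so the limit on the share is too tight. In the 9 longer internal exons 7 of 71 windows were enriched, or 9.86% (4.06 to 19.3), of which 6 were in FARS2 and 1 in EPRS. In the 70 terminal exons 109 of 790 windows were enriched, or 13.8% (11.5 to 16.4). Shares by exon class were not computed over all measured genes, so they are not read as particular to this family.

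The longest exon of a listing had a median of 17.5 windows in the mitochondrial enzymes (lowest 4, highest 62) and 11 in the cytosolic enzymes (3 to 59), ranges that overlap widely. Among mitochondrial enzymes it had a median of 40 windows in the 9 genes with a region (lowest 8, highest 62) and 10 in the 7 without (4 to 18). Among cytosolic enzymes it had a median of 12 windows in the 7 with a region (7 to 59) and 9 in the 13 without (3 to 25). Input levels of mitochondrial enzymes with and without a region overlapped, with medians of 2.50 and 2.63.

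In bins set after the values were seen, all 6 members with an exon of 40 windows or more had a region (AARS2, EARS2, MARS2, PARS2, WARS2 and SARS), where 71.3% of measured genes of this kind did. At 20 to 39 windows 2 of 4 members had one, against 53.2% of measured genes. At 10 to 19 windows 6 of 14 did, against 33.8%, and below 10 windows 2 of 12, against 7.3%. By class, from the longest bin to the shortest, mitochondrial genes with a region were 5 of 5, 1 of 1, 2 of 6 and 1 of 4. Cytosolic genes were 1 of 1, 1 of 3, 4 of 8 and 1 of 8. The members without a region despite a long exon were WARS, with 25 windows in its 3' terminal exon, and NARS, for asparagine, with 23. In that exon of WARS the IP ran from 5.87 to 70.1 and the input from 11.6 to 52.4, and no window scored above 0.70.

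**Figure D4:**
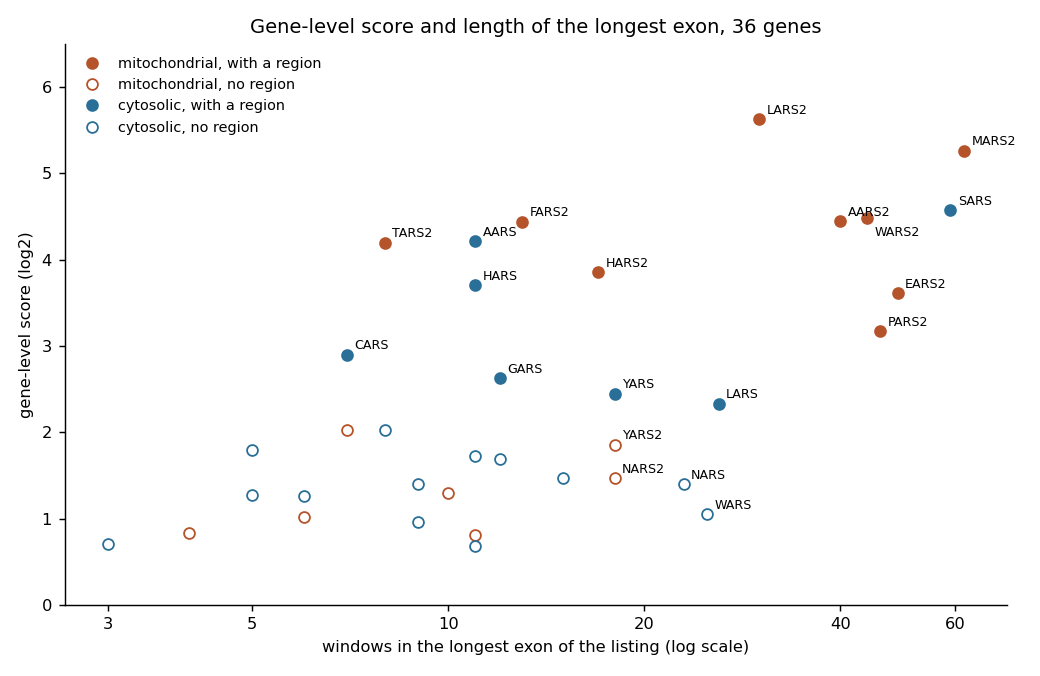
Gene-level score (log2) of each gene against the number of windows in its longest exon (log scale), with mitochondrial enzymes in orange and cytosolic enzymes in blue, filled where a region was called. All 6 genes at 40 windows or more have a region, while WARS at 25 and NARS at 23 windows have none.

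Set against the cytosolic enzyme for the same amino acid, the mitochondrial transcript had the lower input level in 15 of 17 pairs. EPRS and FARS2 each enter 2 of these pairs, so pairs share values. The cytosolic level was a median of 3.09 times the mitochondrial one, and up to 15.0 times in the tryptophan pair, with 1.85 for WARS2 and 27.8 for WARS. The exceptions were CARS2 at 5.74 against CARS at 3.90, and SARS2 at 3.97 against SARS at 1.74. With the 11-exon listing of SARS, at 12.2, the serine pair ran the other way and the count was 16 of 17. With the median over windows as the level, the count was 14 of 17.

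The gene-level score was higher in the mitochondrial enzyme in 13 of 17 pairs. The widest differences were those of FARS2 over FARSA, by 3.48, MARS2 over MARS, by 3.47, WARS2 over WARS, by 3.44, and LARS2 over LARS, by 3.29. FARSA and FARSB, the subunits of the cytosolic phenylalanine enzyme, scored 0.96 and 1.69, and their mitochondrial counterpart FARS2 works as a single chain. In the pairs for alanine and histidine both enzymes scored high, with 4.45 for AARS2 and 4.22 for AARS, and 3.86 for HARS2 and 3.71 for HARS. In the pairs for isoleucine, asparagine, arginine and valine neither gene had a region. The score was lower in the mitochondrial enzyme for SARS2, CARS2, YARS2 and RARS2, where CARS2 stood at 1.01 against 2.90 in CARS.

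**Figure D5:**
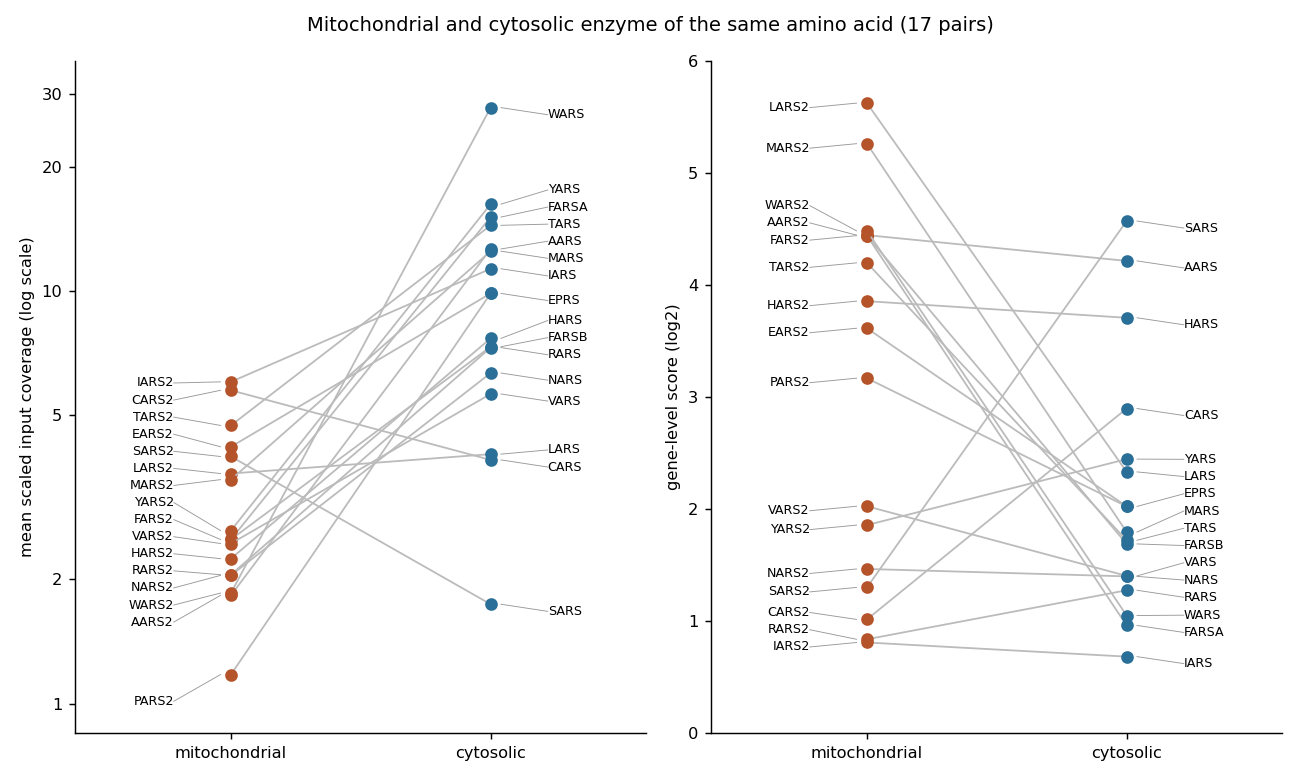
Mean scaled input coverage (left, log scale) and gene-level score (right, log2) of the mitochondrial and cytosolic enzymes of the same amino acid, with a line for each of 17 pairs. Input is lower in the mitochondrial enzyme in 15 pairs and the score is higher in it in 13.

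HARS2 and HARS are neighbours that start back to back on chromosome 5. In RefSeq on GRCh38.p14 the annotated starts are separated by the 84 bases at chr5:140691371-140691454, shown on the plus strand with HARS2 to the right and HARS to the left. They are given to show how the starts of this pair are arranged. Capitals mark matches to CCGGAAGT, the core sequence bound by ETS family factors, on either strand.
HARS_HARS2: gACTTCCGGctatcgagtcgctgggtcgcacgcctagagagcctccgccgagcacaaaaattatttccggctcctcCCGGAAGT

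The regions of both genes lay at the far ends, away from this shared start. HARS2 had 2 regions in exon 13 of 13, with 59.8 and 39.6 in the IP against 3.01 and 3.23 in the input at their peaks. HARS had its region in exon 1 of 13, at the opposite end of the pair, with 189 in the IP and 8.75 in the input. Per the labels the libraries kept the strand, but whether coverage was counted by strand is not given in the sources used here.

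Promoter sequences, 250 bases before to 50 after the start, matched 14 of 16 mitochondrial and 12 of 20 cytosolic genes. CCGGAAGT on either strand was present in 3 of 14 mitochondrial promoters (EARS2, HARS2 and PARS2) and 4 of 12 cytosolic ones (CARS, HARS, NARS and WARS), and in 4.44% of 27305 promoters. HARS2 and HARS share bases, so their matches are not separate. TGATGNAAN, the response element bound by C/EBP and ATF4 under amino acid shortage, was present on either strand in 1 of 14 mitochondrial promoters (YARS2) and 5 of 12 cytosolic ones (AARS, CARS, IARS, NARS and TARS), and in 3.67% of all. These matches are a description of letters and say nothing of binding in these cells.

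Partners of tRNA charging were read from a list of 15 genes, all of which were found and 12 of which were measured. A region was called in 2 of those 12, with 44.2% of all measured genes as the background. GATC, a subunit of the mitochondrial amidotransferase that makes glutaminyl-tRNA, scored 3.29, with 65.8 in the IP and 7.0 in the input at its peak. TRNT1, which adds the CCA end to tRNAs, scored 3.64, with 78.6 in the IP and 4.91 in the input. SEPSECS, which completes selenocysteinyl-tRNA, also had a region, scoring 3.43, but its input level of 0.630 was below the minimum.

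The scaffold proteins of the multisynthetase complex had none, with 1.20 for AIMP1, 0.63 for AIMP2 and 1.67 for EEF1E1. The highest input of the list was that of EEF1A1, the factor that carries charged tRNA to the ribosome, at 398 beside 253 in the IP. Its reads can be shared with processed copies elsewhere in the genome, so this value is uncertain. The lowest was PSTK, a kinase of selenocysteine synthesis, with 0.274 in the IP and 0.339 in the input.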

How the data were processed

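Input and m6A IP libraries of GM12878 were analysed, 1 of each. TopHat 1.1.3 and the build hg19 are named, without their roles, in the submitters' processing notes. The sources used here do not give the coverage program, annotation or scaling. Coverage deposited by the authors is a signal per window, scaled per library. Non-zero coverage was a whole number of library-specific steps (tolerance 0.01 of a step) for 100% of values. Reads were taken as 36 nt long, a length that the steps do not give. A scaled coverage of 1 then equals 10.3 IP reads or 16.2 input reads per window. Read counts and their intervals rest on that length. The log2 window score deposited by the authors was recomputed from coverage, and 0 values differed by more than 1e-09.

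The scripts ran in Python 3.11.15 with pandas 2.3.3 and numpy 2.4.6, intervals came from scipy 1.17.1 and plots from matplotlib 3.10.9. Region calling was first run on simulated counts with planted regions. Those windows were drawn independently around an even level, so that run says nothing of overlapping windows with uneven coverage. Ratios and shares carry exact (Clopper-Pearson) intervals and levels exact Poisson intervals. PCR copies are not independent, so intervals cover counting error only. No test of groups was made. Strand and promoters came from RefSeq tables on GRCh38.p14. Members, lists and thresholds were chosen with earlier results of these data known. Described in full were every member with a region, the 3 highest-scoring without, and the 2 highest and 2 lowest input levels of each class. Alternatives changed threshold, run length, added number, centring, listing and input minimum.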

Additional observations from a re-analysis of the deposited data

How the results depend on the processing

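Of 102 class values recomputed under the alternatives, 75 stayed within their interval or within 1.5 times their count, 26 moved and 1 changed sign. At a score of 1 the genes with a region were 14 mitochondrial and 16 cytosolic (30 in all, 71.4% of measured genes) and the enriched windows 16.9% and 8.43% (12.0% in all, 13.4% of measured genes). At a score of 3 they were 9 and 3 genes (12 in all, 26% of measured genes) and 5.09% and 1% of windows (2.73% in all, 2.38% of measured genes). Runs of at least 4 windows left 9 and 6 genes (31% of measured genes). With 0.1 added the window share was 6.82% in all and 3.71% in cytosolic enzymes. With 5 added it was 6.37% in mitochondrial enzymes, 1.79% in cytosolic enzymes and 3.72% in all. For 0.1 or 5 added, the window share over all measured genes was not computed. Without centring the cytosolic median score was 1.20, and LARS and YARS lost their region (5 of 20 cytosolic genes). Pairs with the higher mitochondrial score were 10 to 13 of 17 under every alternative that kept all genes. An input minimum of 5 left 2 mitochondrial genes, IARS2 and CARS2, with 0 regions, 0% of windows, a median score of 0.91, an input of 5.88 and a gene-wide ratio of -0.53, turned in sign. It left 17 cytosolic genes with 4 regions and 1.73% of windows, 4 genes and 1.56% in all, and 1 pair, with the higher score and lower input in the mitochondrial enzyme (1 of 1 for each). The shares over all measured genes were not computed at this minimum, so whether the family moved apart from them is not known. With the 11-exon SARS listing, an alternative chosen after seeing the data, 6 of 20 cytosolic genes had a region, and without GARS and KARS 6 of 18. No paired analysis was possible because each group has 1 library. Among the 16 genes with a region, low input at the peak limits the ratios of SARS (5 reads) and PARS2 (19 reads) most.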
